A study of Sus scrofa with 4 samples.

Results

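MHC class II molecules and the invariant chain were followed in thymus from pigs with an edited IL2RG gene (KO) and from wildtype pigs (WT). The 9 genes were SLA-DRA, SLA-DRB1, SLA-DQA1, SLA-DQB1, SLA-DMA, SLA-DMB, SLA-DOA, SLA-DOB and CD74, where SLA is the swine leukocyte antigen complex, the MHC of the pig. Their members on the array were all probes whose printed RefSeq accession belongs to 1 of these genes, which gave 32 of the 43603 probes. Every gene had at least 2 probes, and all 32 probes were well above background on all 4 arrays and were tested. Thymus RNA of 2 KO and 2 WT samples was measured on 4 Agilent arrays of porcine oligonucleotides, each with 1 sample. All samples came from Minnesota miniature swine. The KO samples carry the genotype label IL2RG+/-, and according to the methods these pigs were cloned by somatic cell nuclear transfer from cells edited with TALENs in exon 2 of IL2RG, the gene of the cytokine receptor common gamma chain, and the arrays used the KO pigs that had kept a small thymus. The labels give neither age nor sex, and nothing in them says whether the WT samples came from separate animals, so that p-values measure the spread between these samples only.

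MHC class II molecules are pairs of an alpha and a beta chain that carry peptides from the endosome to the cell surface and show them to CD4 T cells. They are made by B cells, dendritic cells and macrophages, and in the thymus also by epithelial cells, where they select CD4 thymocytes. A newly made pair is held by the invariant chain until proteases cut that chain away, and its last fragment is then exchanged for peptide with the help of DM, which is itself held back by DO. Transcription of the classical chains, the DM chains and the invariant chain is switched on by the coactivator CIITA and is raised by interferon gamma.

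On each array the brightness of a spot follows the amount of the matching mRNA. The values below are normalized log2 signals, that is, the log2 of the background-subtracted signal minus the 75th percentile of its array, and they can be compared between arrays for 1 probe but not between probes. Log2 fold changes are KO minus WT. A probe was called at a Benjamini-Hochberg adjusted p under 0.05 in limma, taken over 31959 tested probes, together with a fold change of at least 2. Each gene is represented by its brightest probe unless another is named. Slide 1 held KO replicate 1 with WT replicate 2, and slide 2 held the other two. The share of probes well above background was 74.5% and 73.5% on the KO arrays and 67.9% and 68.1% on the WT arrays, and no spot was saturated. IL2RG itself stood at -3.15 and -3.29 in KO and at -0.13 and 0.52 in WT. The median log2 fold change of all tested probes was -0.06, and -0.32 when the arrays were scaled to their medians. With 2 arrays per genotype, an exact permutation test of 1 value cannot go below a two-sided p of 0.333.

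MHC class II and CD74 transcripts were higher in KO thymus throughout the group. All 32 probes were called higher, against 21.0% of all tested probes, and at all 32 both KO arrays lay above both WT arrays, which was so for 37.7% of all tested probes. The count was 22 without KO replicate 1 and 21 without KO replicate 2, and it was 32 when either WT array was left out. With an array left out the spread of a probe comes from the pair of the other genotype, and the lone array is assumed to vary like it. No share of all tested probes was taken for these fits, so that their counts cannot be set against the array as a whole. The log2 fold changes ran from 1.19 to 2.23 with a median of 1.97, which is a median fold change of 3.93, and the standard errors ran from 0.15 to 0.41. The adjusted p values in limma lay between 0.00219 and 0.0225. At least a 4-fold rise was called at 13 probes, namely 3 of SLA-DQA1 and 2 each of SLA-DRA, SLA-DQB1, SLA-DMB, SLA-DOA and CD74, against 11.2% of all tested probes. The SLA-DOB probes stood below the others, since the smallest log2 fold change outside SLA-DOB was 1.54. The tissue was measured in bulk, so that a change in the number of cells that make class II and a change in the RNA per cell cannot be told apart.

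**Figure D1:**
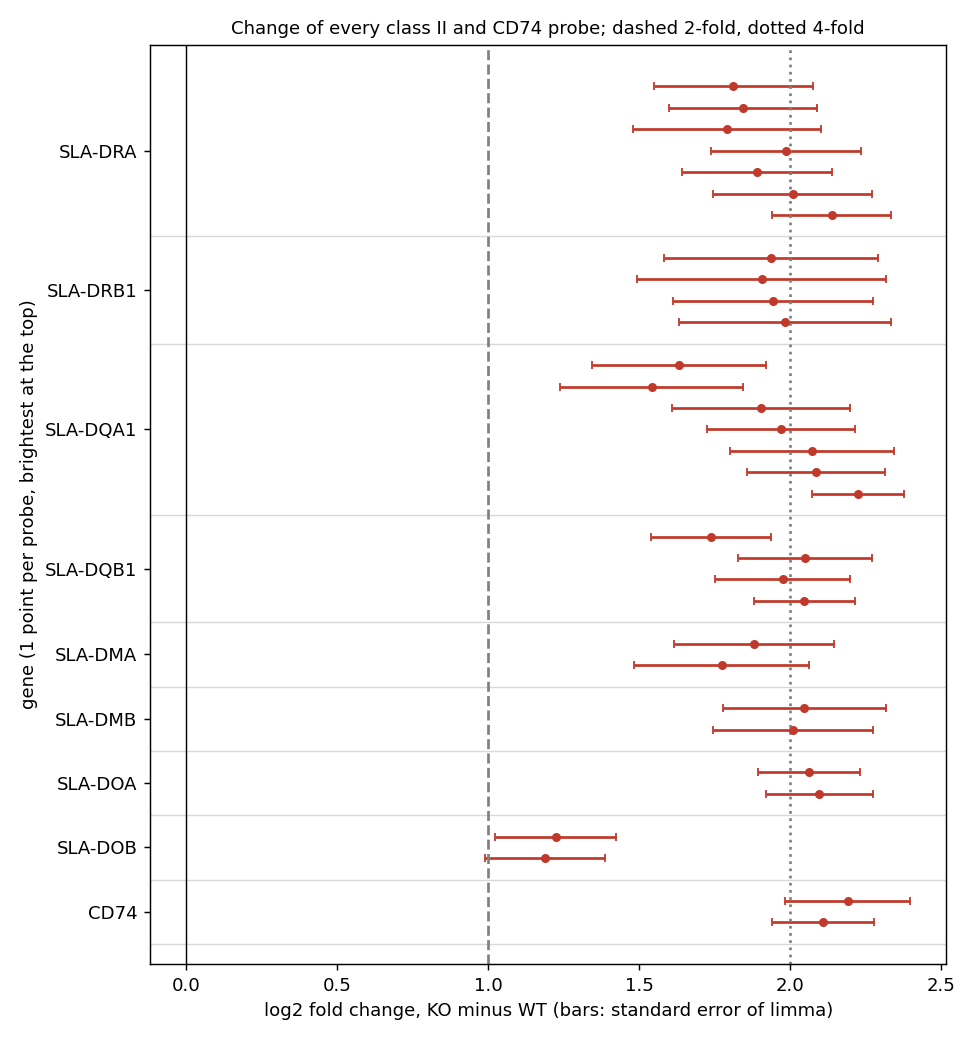
Log2 fold change (KO minus WT, x axis) of each of the 32 probes, grouped by gene with the brightest probe of a gene at the top. Points are limma estimates and bars their standard errors, and the dashed and dotted lines mark 2-fold and 4-fold. All probes lie to the right of the 2-fold line, and the 2 probes of SLA-DOB, at 1.22 and 1.19, lie nearest to it.

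Among the classical molecules, which present peptide at the cell surface, DR is formed by SLA-DRA and SLA-DRB1. The normalized log2 signal of SLA-DRA, the alpha chain shared by all DR molecules, was 8.28 and 8.51 in KO but 6.88 and 6.28 in WT. The KO arrays lay close together and clearly above both WT arrays. SLA-DRA was thus 3.51-fold higher in KO (log2 fold change 1.81, standard error 0.26, adjusted p = 0.00834 in limma), and its 7 probes rose by 1.79 to 2.14. SLA-DRB1, the variable beta chain, was at 7.01 and 7.06 in KO and at 5.57 and 4.62 in WT. Here the WT arrays were the farthest apart of all 9 genes, with a WT mean of 5.10 ± 0.68 (SD, n = 2) against 7.03 ± 0.04 (SD, n = 2) in KO. The fold change was 3.83 (log2 fold change 1.94, standard error 0.36, adjusted p = 0.0147 in limma), and the 4 probes agreed within 1.91 and 1.98. The RefSeq table also lists further DRB genes, and the probe sequences were not used here, so that signal shared between SLA-DRB1 and near copies cannot be separated. Without KO replicate 2 the brightest SLA-DRA probe missed the threshold, at an adjusted p of 0.053, and SLA-DRB1 missed it without KO replicate 1 (0.0618) and without KO replicate 2 (0.0681).

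DQ, the other classical molecule measured, is formed by SLA-DQA1 and SLA-DQB1. SLA-DQA1, its alpha chain, was at 8.12 and 8.26 in KO and at 6.92 and 6.19 in WT. The brightest probe rose by 1.63 on the log2 scale (standard error 0.29, adjusted p = 0.0134 in limma), but the 7 probes of this gene were spread from 1.54 to 2.23, the widest range within a gene. SLA-DQB1, its beta chain, was at 7.87 and 8.02 in KO and at 6.39 and 6.02 in WT. Both chains of DQ were therefore higher on each KO array than on either WT array. SLA-DQB1 rose 3.34-fold (log2 fold change 1.74, standard error 0.20, adjusted p = 0.00495 in limma) and its 4 probes lay between 1.74 and 2.05. The brightest SLA-DQA1 probe missed the threshold without KO replicate 1 (adjusted p = 0.06) and without KO replicate 2 (0.0744), whereas SLA-DQB1 was called with any 1 array left out.

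**Figure D2:**
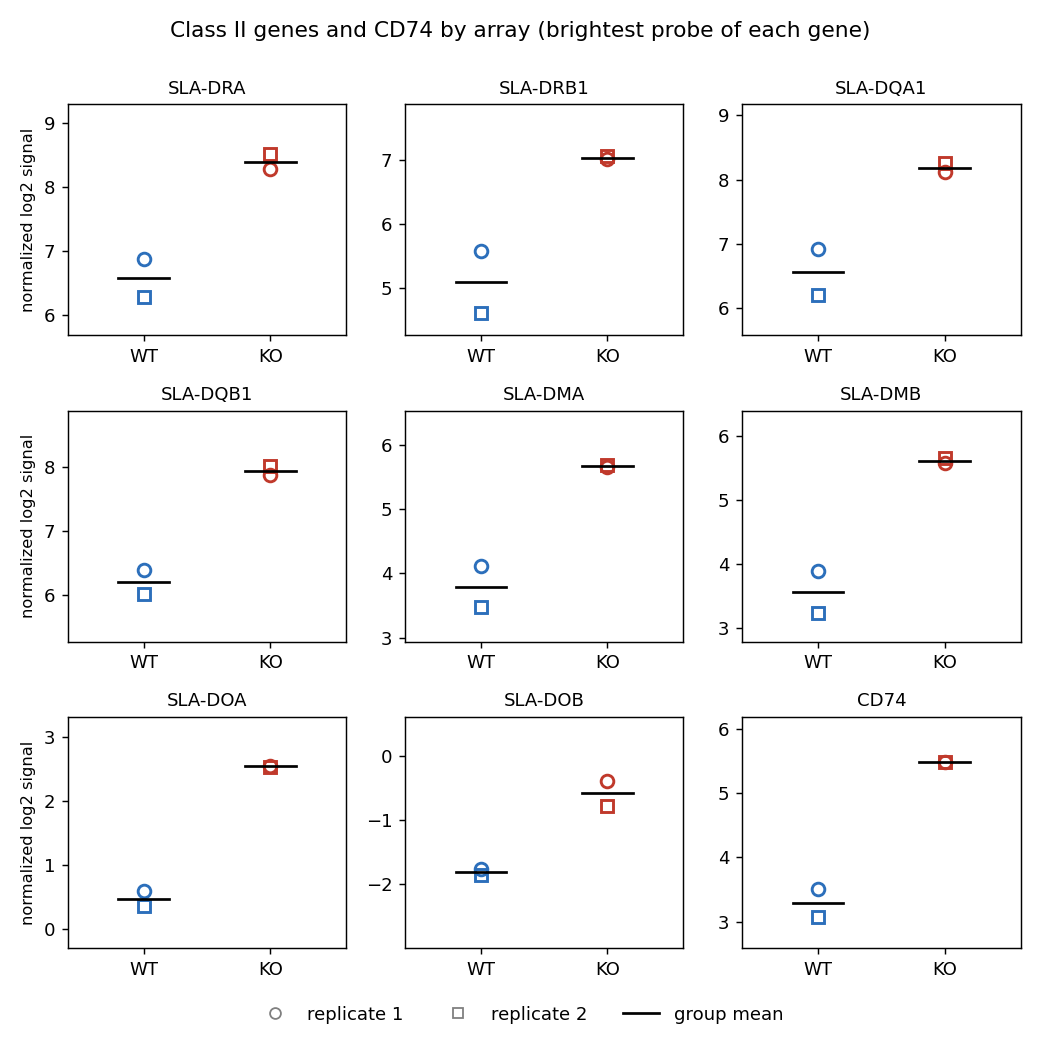
Normalized log2 signal (y axis, each panel spanning the same number of log2 units) of the brightest probe of each gene on the 2 WT and 2 KO arrays, with circles for replicate 1, squares for replicate 2 and lines for group means. In all 9 panels both KO arrays lie above both WT arrays, and at SLA-DRB1 the WT arrays are farthest apart, at 5.57 and 4.62.

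The peptide exchange factor DM is formed by SLA-DMA and SLA-DMB, which do not present peptide themselves but free the binding groove of the last piece of invariant chain. SLA-DMA was at 5.66 and 5.70 in KO and at 4.12 and 3.47 in WT. Its fold change was 3.68 (log2 fold change 1.88, standard error 0.27, adjusted p = 0.00779 in limma), and the other probe gave 1.77. SLA-DMB was at 5.58 and 5.65 in KO and at 3.90 and 3.24 in WT. Both DM chains showed close KO arrays and a wider gap between the WT arrays, with WT replicate 1 the higher. SLA-DMB was 4.14-fold higher (log2 fold change 2.05, standard error 0.27, adjusted p = 0.00668 in limma).

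DO, which binds DM and slows the exchange, is known mainly from B cells and from some thymic epithelial and dendritic cells. SLA-DOA was at 2.54 and 2.53 in KO and at 0.59 and 0.35 in WT, a 4.18-fold rise (log2 fold change 2.06, standard error 0.17, adjusted p = 0.00271 in limma). SLA-DOB was at -0.39 and -0.77 in KO and at -1.76 and -1.85 in WT. This was the smallest change of the group, 2.34-fold (log2 fold change 1.22, standard error 0.20, adjusted p = 0.0111 in limma). It was also the call nearest to the fold threshold, since the log2 fold change was 0.97 after scaling to the median of each array and 0.93 after the normexp background correction, both under 2-fold. Without KO replicate 1 it missed the threshold at an adjusted p of 0.0842. At the brightest probes SLA-DOB was higher in KO replicate 1, whereas the DR, DQ and DM genes were slightly higher in KO replicate 2. This did not hold at all probes. KO replicate 1 was the higher at the other probes of SLA-DMA (3.09 against 3.03) and SLA-DMB (3.26 against 3.23). It was also the higher at the dimmest SLA-DRA probe (5.87 against 5.77).

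CD74, the invariant chain, showed the largest change of the 9 genes by brightest probe. It was at 5.48 in both KO arrays compared with 3.51 and 3.08 in WT, which is 4.57-fold higher (log2 fold change 2.19, standard error 0.21, adjusted p = 0.0034 in limma). Its other probe gave a log2 fold change of 2.11. CD74 was called with any 1 array left out, as were SLA-DQB1, SLA-DMA, SLA-DMB and SLA-DOA, under the same assumption on the lone array.

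Differences between genes within an array were used to ask whether the members changed by unequal amounts. They do not change when a whole array is scaled by a single factor, but they can change with quantile normalization or another background correction. The mean of the DO chains minus the mean of the DM chains was -4.54 and -4.79 in KO, compared with -4.59 and -4.10 in WT. These values overlapped, and their group means differed by -0.32 (exact two-sided permutation p = 0.667). The difference was -0.50 after quantile normalization and -0.51 after normexp and in the deposited log2 values. In each of these settings the groups did not overlap (exact two-sided permutation p = 0.333), so that the overlap depended on the processing. The split of DO into its chains was not a planned difference. SLA-DOB had the smallest change of the group, so that its values here are a description and no separate support. For SLA-DOB alone against DM, the values were -6.00 and -6.45 in KO as against -5.77 and -5.20 in WT, a difference of -0.74 without overlap (exact two-sided p = 0.333, the smallest possible). For SLA-DOA against DM it differed between genotypes by 0.10 (exact two-sided p = 1). SLA-DRA minus CD74 was 2.80 and 3.03 in KO but 3.38 and 3.20 in WT, a difference of -0.38 without overlap (exact two-sided p = 0.333). With the dimmest probe of each gene the sign of this difference turned, to 0.0277 (exact two-sided p = 1), so that no unequal change of SLA-DRA and CD74 was shown.

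The size of the change varied with the brightness of the probe within the classical genes. Across the 7 probes of SLA-DQA1, Pearson's r between the log2 fold change and the mean signal was -0.95, and across the 7 probes of SLA-DRA it was -0.90. The dimmest SLA-DQA1 probe gave 2.23 and the dimmest SLA-DRA probe 2.14, compared with 1.63 and 1.81 at the brightest. Over the 4 probes of SLA-DRB1 r was -0.78, and over the 4 of SLA-DQB1 it was -0.62. Probes of 1 gene measure the same RNA on the same arrays and are not replicates. Over the 30 probes outside SLA-DOB r was -0.54, whereas with SLA-DOB it was 0.29. The highest signals carried no saturation mark, and the part of signal level in the fold changes was not tested.

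**Figure D3:**
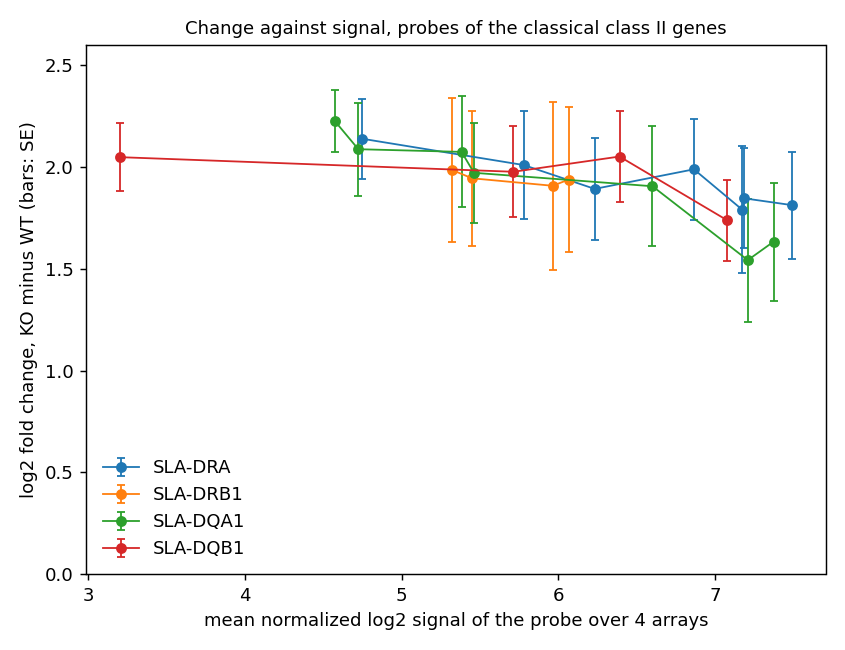
Log2 fold change (KO minus WT, y axis, bars are standard errors of limma) against mean normalized log2 signal over the 4 arrays (x axis) for the probes of SLA-DRA, SLA-DRB1, SLA-DQA1 and SLA-DQB1, with lines joining probes of a gene. The brightest probes of SLA-DRA and SLA-DQA1, at 1.81 and 1.63, lie below the dimmest of the same genes, at 2.14 and 2.23.

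The spread of the group lay in WT. WT replicate 1 was above WT replicate 2 at 31 of the 32 probes, against 49.8% of all tested probes, with a median gap of 0.58 and a range from -0.07 to 1.13. The KO arrays differed by a median of 0.12 and by at most 0.39. Over all tested probes the median gap without sign was 0.30 between the WT arrays and 0.16 between the KO arrays. By gene, the median WT gap was 0.95 at SLA-DRB1, between 0.58 and 0.69 at SLA-DRA, SLA-DQA1, SLA-DMA and SLA-DMB, 0.41 at SLA-DQB1 and at most 0.31 at CD74, SLA-DOA and SLA-DOB. The WT arrays lay on different slides, but KO and WT could also be compared within a slide. KO replicate 1 exceeded WT replicate 2 on slide 1 by a log2 difference of 1.46 to 2.42, and all 32 probes passed 2-fold, against 23.7% of all tested probes. KO replicate 2 exceeded WT replicate 1 on slide 2 by 0.91 to 2.25, and 30 probes passed 2-fold, against 22.0% of all tested probes. The 2 probes under 2-fold there were those of SLA-DOB. With the slide as a block in the fit, all 32 probes were called, a count for which no share of all tested probes was taken. An unmoderated test gave fewer calls. At an unadjusted p under 0.05 and 2-fold, the unpaired test that the methods name called 28 of the 32 probes, against 16.0% of all tested probes. After Benjamini-Hochberg adjustment it called 2, against 2.26%, and with Bonferroni correction 0, against 0.00%.

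The surrounding pathway was examined by a list of 29 genes for transcription, interferon gamma signalling, endosomal proteolysis, turnover and binding partners. A named probe was tested for 14 of them, and 7 were called higher, 2 lower and 5 neither, with a median log2 fold change of 0.96. Of the 2702 named and tested genes, 25.2% were called higher and 12.6% lower. CIITA, the RFX genes, cathepsin S and the MARCH ligases that remove class II from the surface had no named probe here, so that of the 8 transcription factors listed NFYB alone was measured. Without KO replicate 1 or without KO replicate 2 the counts were 4 higher and 1 lower.

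All 6 genes of the interferon gamma list were measured, and 3 of them rose. IFNG, the cytokine, was near the dim end of the array, at -1.50 and -1.43 in KO and at -5.37 and -5.38 in WT, and was 15.0-fold higher in KO (log2 fold change 3.91, standard error 0.15, adjusted p = 0.00205 in limma). IRF1, a factor induced by interferon gamma that itself acts on the CIITA gene, rose by 1.70 (standard error 0.20), at both of its probes. At IFNG the KO arrays lay close to each other and far above WT. Of the receptor chains, IFNGR2 rose by 2.23 (standard error 0.28) and IFNGR1 differed by 0.77 (standard error 0.26, adjusted p = 0.0716 in limma), and the 4 probes of IFNGR1 were not called. The receptor kinases were not called either, with JAK2 at 0.71 (standard error 0.31, adjusted p = 0.125 in limma) and JAK1 at -0.59 (standard error 0.16, adjusted p = 0.0419 in limma but under 2-fold). IFNGR1 was called without WT replicate 2 (log2 fold change 1.09) and JAK2 without WT replicate 1 (1.11).

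Of 9 endosomal genes, 4 were measured and 3 rose. The cysteine proteases CTSB and CTSH rose by 1.22 and 1.23 (standard errors 0.25 and 0.21), at all probes of each gene. IFI30, the reductase that opens disulfide bonds of antigens, was at 5.13 and 5.44 in KO and at 4.55 and 3.73 in WT, a log2 difference that reached 1.15 (standard error 0.33, adjusted p = 0.0468 in limma), with 1 of its 2 probes called. CTSD, an aspartic protease, differed by -0.16 (standard error 0.21), and its KO and WT arrays overlapped. None of these 3 rises was called when either KO array was left out, and after scaling to the median they were under 2-fold, at 0.96 for CTSB, 0.97 for CTSH and 0.89 for IFI30.

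NFYB, a subunit of the NF-Y complex that binds class II promoters, was lower, at 0.74 and 0.87 in KO and at 1.70 and 1.92 in WT (log2 fold change -1.01, standard error 0.17, adjusted p = 0.0121 in limma). This lay at the 2-fold line, 2 of its 4 probes were called, and it was under 2-fold after quantile normalization (-0.94), after the normexp correction (-0.97) and in the deposited log2 values (-0.94). Among partners of class II and CD74, the surface proteins that bind class II went in opposite directions. CD4, the coreceptor of T helper cells and of most thymocytes, was at -1.85 and -1.67 in KO and at 0.39 and 1.29 in WT (log2 fold change -2.60, standard error 0.34, adjusted p = 0.00674 in limma). LAG3, an inhibitory receptor of activated lymphocytes, was at 0.92 and 1.14 in KO and at -1.09 and -1.61 in WT (log2 fold change 2.38, standard error 0.24, adjusted p = 0.00388 in limma). MIF, a ligand of CD74, was between 5.83 and 5.92 on all 4 arrays and differed by 0.02 (standard error 0.15).

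Markers of the cells that carry class II did not all rise with the group. Of the macrophage list, 8 of 13 genes were measured and all 8 rose, by 1.82 to 2.77, against 25.2% of all named and tested genes called higher. The complement genes C1QA, C1QB and C1QC rose by 2.39, 2.34 and 2.23, and LYZ, lysozyme, by 2.77. The summed linear level of the list was 279 and 347 in KO but 70.9 and 55.2 in WT, in units of the 75th percentile of an array. Of 4 measured dendritic cell genes XCR1, CD80 and CD86 rose, by 1.13, 2.25 and 1.27, and CCR7 differed by 0.48 without a call, and the summed level was 11.8 and 10.4 in KO but 6.53 and 7.42 in WT. Of 4 measured thymic epithelial genes, KRT8 and CDH1 rose by 2.37 and 1.34, while EPCAM at 0.37 and CCL25 at 0.48 were not called. The epithelial sum was 278 and 257 in KO but 104 and 73.8 in WT. In KO that sum rests mostly on KRT8, at 7.61 and 7.54 there and at 5.65 and 4.76 in WT. The part of these cells in the class II values was not tested.

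The B cell list split. CD79A, a chain of the B cell receptor complex, was at -3.58 and -3.78 in KO and at -0.16 and -0.25 in WT (log2 fold change -3.47, standard error 0.17). MS4A1, which encodes CD20, was at -5.59 and -6.03 in KO, where 1 of the 2 arrays was well above background, and at -2.07 and -2.65 in WT. Both of these genes were called lower, whereas all class II probes were called higher. BLNK and CD40, which macrophages and other class II-positive cells express as well, were higher by 1.43 and 2.10. The summed level of the list, in which bright probes weigh most, was 53.4 and 50.05 in KO against 15.8 and 11.7 in WT. That sum rests mostly on CD40, at 5.65 and 5.53 in KO and at 3.69 and 3.28 in WT. SLA-DOB, the DO chain usually ascribed to B cells, was higher in KO by 1.22. The part of B cells in the class II values was not tested.

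**Figure D4:**
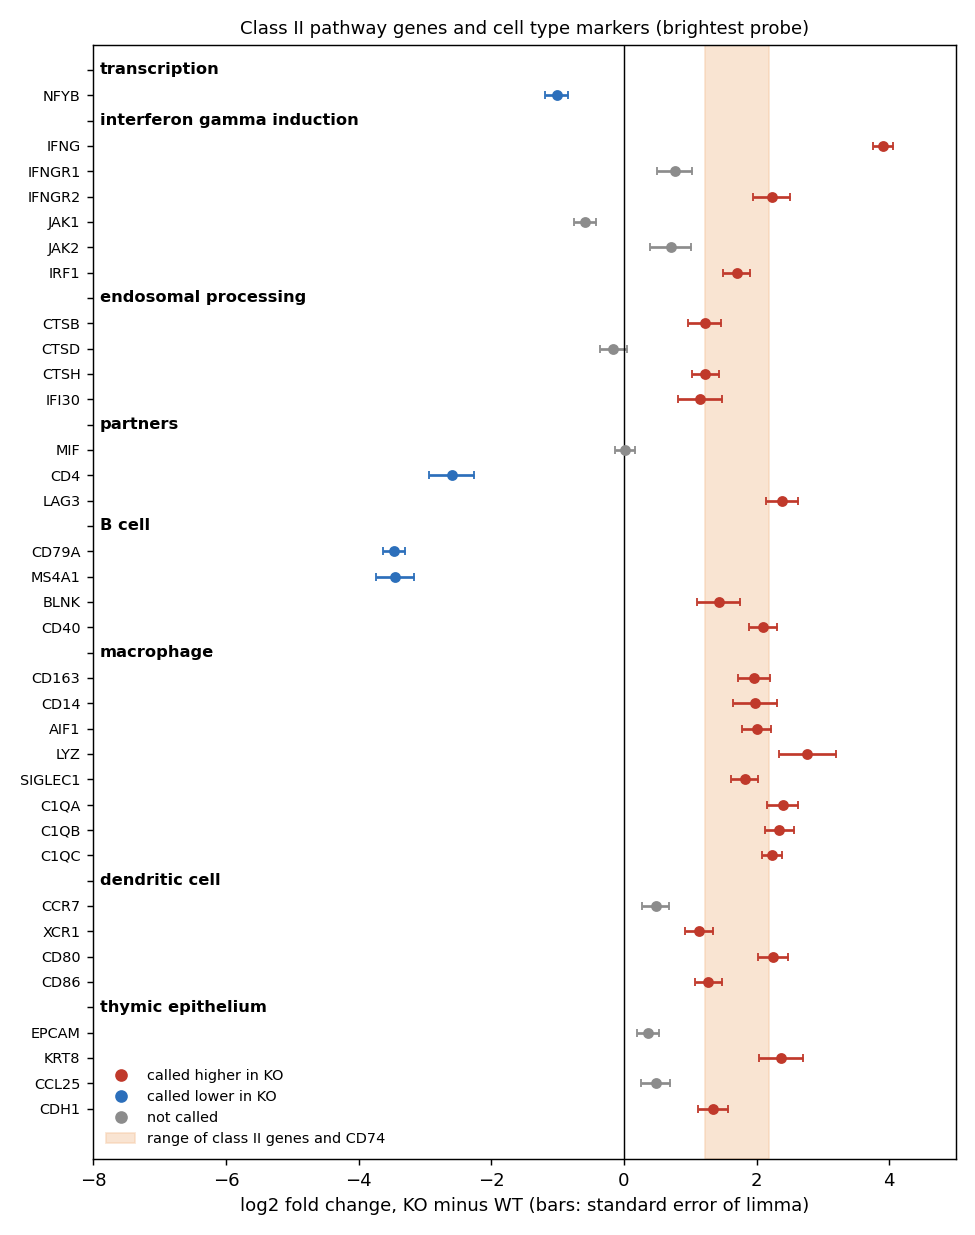
Log2 fold change (KO minus WT, x axis, bars are standard errors of limma) of the measured pathway genes and of markers of B cells, macrophages, dendritic cells and thymic epithelium, 1 brightest probe per gene, in red where called higher, blue where called lower and grey where not called. The shaded band spans the class II genes and CD74, 9 in all, from 1.22 to 2.19. All 8 macrophage markers lie at 1.82 or above, whereas CD79A and MS4A1 lie far to the left.

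Markers of other cell types of the organ also differed. The thymocyte list, which had 10 of 12 genes measured, was lower at all 10, against 12.6% of all named and tested genes, with a summed level of 26.0 and 25.1 in KO and 161 and 229 in WT. All 4 measured endothelial genes and all 3 fibroblast genes rose, with medians of 2.01 and 1.79, against 25.2% of all named and tested genes. The summed endothelial level was 17.5 and 19.1 in KO but 5.69 and 3.30 in WT, and the fibroblast sum was 115 and 175 in KO but 63.1 and 27.2 in WT. Of 6 adipocyte genes 3 rose, to be read against the same 25.2%, and the sum of the list was 40.1 and 117 in KO but 17.6 and 9.61 in WT. As at the class II probes, WT replicate 1 exceeded WT replicate 2 in the summed levels of macrophage, epithelial, endothelial and fibroblast genes, and also in those of B cell and adipocyte genes. It was below WT replicate 2 in the sums of dendritic cell genes, 6.53 against 7.42, and of thymocyte genes. The dendritic sum rests mostly on its brightest gene, CCR7, at 2.34 and 2.65 in WT. CD80 was also lower in WT replicate 1, whereas XCR1, at -0.79 and -1.20, and CD86, at -0.28 and -0.68, were higher in it. In the lists whose sums were higher in WT replicate 1, only EPCAM, at 3.73 and 3.90, and CD163, at 2.85 and 2.86, were lower in it. C1QC was at 2.82 on both WT arrays. The B cell sum rests mostly on CD40, and the brightest epithelial gene, KRT8, was at 5.65 and 4.76 in WT. The part of these cell types in the class II values was not tested.

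Among the 5 named genes outside the group whose 4 array values were most like the median profile of the members, by root mean square distance after each gene was centred on its WT mean, were ADM, TNFSF13B and F2. ADM, the vasodilator peptide adrenomedullin, lay at a distance of 0.0348 log2 units. TNFSF13B, a cytokine that acts on B cells, lay at 0.0684, and F2, prothrombin, at 0.0744. Their log2 fold changes were 1.88, 1.96 and 1.82. Of the members themselves SLA-DMA was nearest to the profile, at 0.0212, and SLA-DOB farthest, at 0.532. The search covered 2505 named genes over 4 arrays, and nothing on shared function can be read from it.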

How the data were processed

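The authors deposited intensity values of 4 single-colour arrays, written by Agilent Feature Extraction 11.0.1.1 per the file headers, background-subtracted and not normalized between arrays. The methods describe Cy-3 and Cy-5 labelling, whereas the labels and the scanner output give 1 channel. The authors also deposited log2 values of 27974 probes, which held quantile-normalized signals of the same arrays. Spleen arrays were not analysed here. Groups and replicate numbers were taken from the sample labels.

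Control spots and outlier spots were left out, which removed 6 of 43603 probes. The 75th percentile was subtracted from the log2 processed signal of each array (raw percentiles 762 and 695 in KO, 621 and 694 in WT), and spots of a probe were averaged. A probe was tested if both arrays of either genotype were well above background, which held for 31959 probes, and these were fitted with lmFit and eBayes of limma 3.58.1 in R 4.3.3, and the procedure was tested on simulated data. Python 3.11.15 with pandas 2.3.3 and matplotlib 3.10.9 served for tables and plots. The number of arrays limits the precision.

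Gene names came from the RefSeq table of Sscrofa11.1, used without coordinates, and 6686 of the 7111 probes with a RefSeq accession were matched. The text names IL2RG, all members, measured genes of the pathway and marker lists, and genes among the 5 nearest to the median profile of the members. Some genes are left unreported, and their values entered none of the list counts or sums. The members and lists were chosen with earlier results of these data known, so that their counts are descriptions. Other settings tried were scaling to the median, quantile normalization, the deposited log2 values, normexp with an offset of 50 on the median intensity, no filter on dim probes or a stricter one, a block for the replicate number or the slide, the methods' t-test, Bonferroni correction, an intensity trend, fold change or adjusted p alone, the mean over probes, and leaving out each array. The dimmest probe, the differences within a slide and a 4-fold threshold were added after the values were seen. The differences of SLA-DOA alone and of SLA-DOB alone from DM were not among the planned ones either.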

Additional observations from a re-analysis of the deposited data

How the results depend on the processing

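No alternative turned the direction of a class II gene or CD74, and no probe of them was called lower. The 32 probes called higher became 30 after scaling to the median and after normexp, and 13 at 4-fold. Shares of all tested probes were taken only for the main fit, the 4-fold threshold, the comparisons within a slide and the methods' t-test. The counts in the other settings therefore describe the members alone. Leaving out an array gave 21 to 32 probes and 6 to 9 genes, the lowest without KO replicate 2. Pathway genes called numbered 4 to 8 higher and 1 to 2 lower when an array was left out, 4 higher after scaling to the median, and 1 lower after quantile normalization, normexp, averaging over probes, in the deposited log2 values and within slide 2. The methods' t-test called 0 class II probes, 0 genes, 0 pathway genes higher and 0 lower with Bonferroni correction. With Benjamini-Hochberg adjustment it called 2 probes, 0 genes, 1 pathway gene higher and 0 lower, and unadjusted it called 28 probes and 8 genes. Limma with Bonferroni correction called 0 probes, 0 genes and 0 pathway genes in either direction, whereas all 32 probes had an unadjusted limma p under 0.05. With the replicate number as a block 32 probes and 9 genes were called, and 6 pathway genes higher, since IFI30 was lost (adjusted p = 0.0705 in limma). The differences between replicates 1 and 2 of KO and of WT correlated at -0.29 across probes. KO replicate 1 shared a slide with WT replicate 2, so that a difference between slides enters them with opposite signs. The part of the slide in this correlation was not tested. The crossed pairing is that of the slides, and as a block it called 32 probes. The KO minus WT difference of SLA-DRA minus CD74 was 0.0277 with the dimmest probes, where it was -0.38 with the brightest, and -0.49 to -0.26 with an array left out. The mean of DO minus DM stayed between -0.57 and -0.07 with an array left out. It was -0.50 after quantile normalization and -0.51 after normexp and in the deposited log2 values, where the groups no longer overlapped. Matching by the gene names of the array design was planned and was not run, since the scanner output used here has no such column. Genes without a named probe were not measured, and 2 arrays per genotype limit what a missed threshold can say.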

Other observations

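In the gene order of the RefSeq table, 16 protein-coding genes run from SLA-DRA to SLA-DOA, and CD74 lies on another chromosome. This stretch was looked at after the class II values were seen. Of its genes, 13 had a tested named probe, and 5 of these were not class II genes. PSMB9, a subunit of the immunoproteasome, was at 6.64 and 6.75 in KO and at 5.53 and 5.13 in WT (log2 fold change 1.37, standard error 0.20, adjusted p = 0.00894 in limma). TAP1, a chain of the peptide transporter of class I presentation, was at 3.75 and 3.60 in KO and at 2.62 and 1.87 in WT (log2 fold change 1.44, standard error 0.30, adjusted p = 0.0198 in limma). Both were called higher, against 25.2% of all named and tested genes, and on each the KO arrays lay above both WT arrays. TAP2 and PSMB8, their partners in the same stretch, were not called. At each of them, too, the KO arrays lay above both WT arrays, which was so for 37.7% of all tested probes. TAP2 differed by 0.34 (standard error 0.16, adjusted p = 0.141 in limma) and PSMB8 by 0.36 (standard error 0.20, adjusted p = 0.206 in limma). BRD2, a chromatin reader that lies between the class II genes, was at 5.39 and 5.63 in KO and at 5.90 and 5.96 in WT (log2 fold change -0.42, standard error 0.17, adjusted p = 0.108 in limma). Not all genes of the stretch were thus called higher like the class II genes, which lie on both sides of these 5. Whether TAP1 and TAP2, or PSMB9 and PSMB8, differ from each other in their change was not tested.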
